A study of Rattus norvegicus with 6 samples.

Results

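The genes of mitochondrial and peroxisomal fatty acid oxidation were examined in kidneys of 2 rat strains. They were taken from a list of 40 genes: each gene was read from the probe set (the group of probes on the array that targets 1 transcript) that carried its symbol alone, and where several did, from the one with the highest mean over the 6 arrays. In this way 39 of the 40 genes were measured, of 14217 named genes on the array, and all 39 passed the filter on low signals. Acaa1a, a peroxisomal thiolase gene, was left out because its probe set is shared with Acaa1b. The genes were divided by role into 11 of fatty acid activation and import, 16 of mitochondrial oxidation, 9 of peroxisomal oxidation and 3 of ketone body use.

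Fatty acids enter oxidation as coenzyme A esters, made by acyl-CoA synthetases, and cross the mitochondrial membranes as carnitine esters through the carnitine palmitoyltransferases Cpt1 and Cpt2 and a translocase. Inside, each turn of the oxidation spiral uses an acyl-CoA dehydrogenase, a hydratase, a hydroxyacyl-CoA dehydrogenase and a thiolase, while peroxisomes shorten very long and branched chains by a parallel set of enzymes. In the kidney this pathway is best known from the proximal tubule, whose cells depend on fatty acids and ketone bodies for the energy of reabsorption.

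The reference strain was the inbred Dahl salt-sensitive rat (SS/Jr, called S), which develops high blood pressure. The other was the congenic strain S.LEW(D1MCO4x1x3Bx1), which by its name carries Lewis (LEW) alleles at a chromosome 1 segment on the S background, so both strains share the S genome elsewhere. Each strain contributed whole-kidney RNA from 3 adult males with 1 array each, and the congenic line stands for 1 donor segment. The labels state neither diet, nor exact age, nor blood pressure. In whole kidney, fewer cells of a type and less RNA per cell cannot be told apart.

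The arrays were alike in brightness, with medians of 163 to 178. The ratio of the 3' to the 5' probe set of beta-actin, which grows as RNA degrades, was 1.99 to 2.30 in S rats and 1.94 to 2.06 in congenic rats. The tissue carried its defining markers: all 18 proximal tubule markers passed the filter on low signals, as did 7 of 8 measured markers of the loop of Henle and distal tubule and all 9 of the collecting duct. Of 6 measured adipocyte markers 2 passed, Cidec and Lipe, and Cyp11b1 and Star, which mark adrenal cortex, did not, while Mrap, a receptor accessory gene listed with them, did with 332 to 392 over the 6 rats. Adamts16, the gene named in the title of the series, has no member of the pathway among the 25 protein-coding genes on either side of it in the gene order of assembly GRCr8. Of the 39 genes 7 lie on chromosome 1, and the nearest of them to Adamts16, Etfb, is separated from it by 940 protein-coding genes. Of these 7, 2 had an unadjusted p below 0.05, where 10.3% of all tested probe sets did. They were Acsm3, lower in congenic kidneys, and Etfb, higher. The bounds of the donor segment are not given here, so gene order does not show which genes lie inside it.

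No gene of the pathway passed the adjusted threshold, as no probe set of the whole array did: limma with Benjamini-Hochberg adjustment called 0 of 15521 tested probe sets (0%) at adjusted p 0.05, while 1602 had an unadjusted p below 0.05. At unadjusted p below 0.05, there were 10 of the 39 genes (25.6%), where 10.3% of all tested probe sets were past this mark. Of the 10, Hadh, Acsl1, Acot2, Acsm3, Acox3, Etfdh and Acads were lower in congenic kidneys (17.9% of the genes, against 5.61% of all probe sets) and Crat, Etfb and Decr2 were higher (7.69%, against 4.72%). The genes did not move one way as a set: 19 had positive and 20 negative log2 differences, with a median of -0.01, and the median of all tested probe sets was -0.01 too. Without S replicate 3 the 10 became 5 (4 lower and 1 higher), with 3.76% of all probe sets lower and 3.61% higher. Without S replicate 2 the 10 became 6 (4 lower and 2 higher), against 4.49% and 4.16% of all probe sets. With congenic replicate 3 left out 4 were lower and 3 higher, against 4.44% and 3.74% of all probe sets. With congenic replicate 2 left out 6 were lower and 1 higher, against 4.9% and 3.78%. With arrays centred on their median it was 3 lower and 5 higher, while 2.49% of all probe sets were then lower and 9.48% higher.

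**Figure D1:**
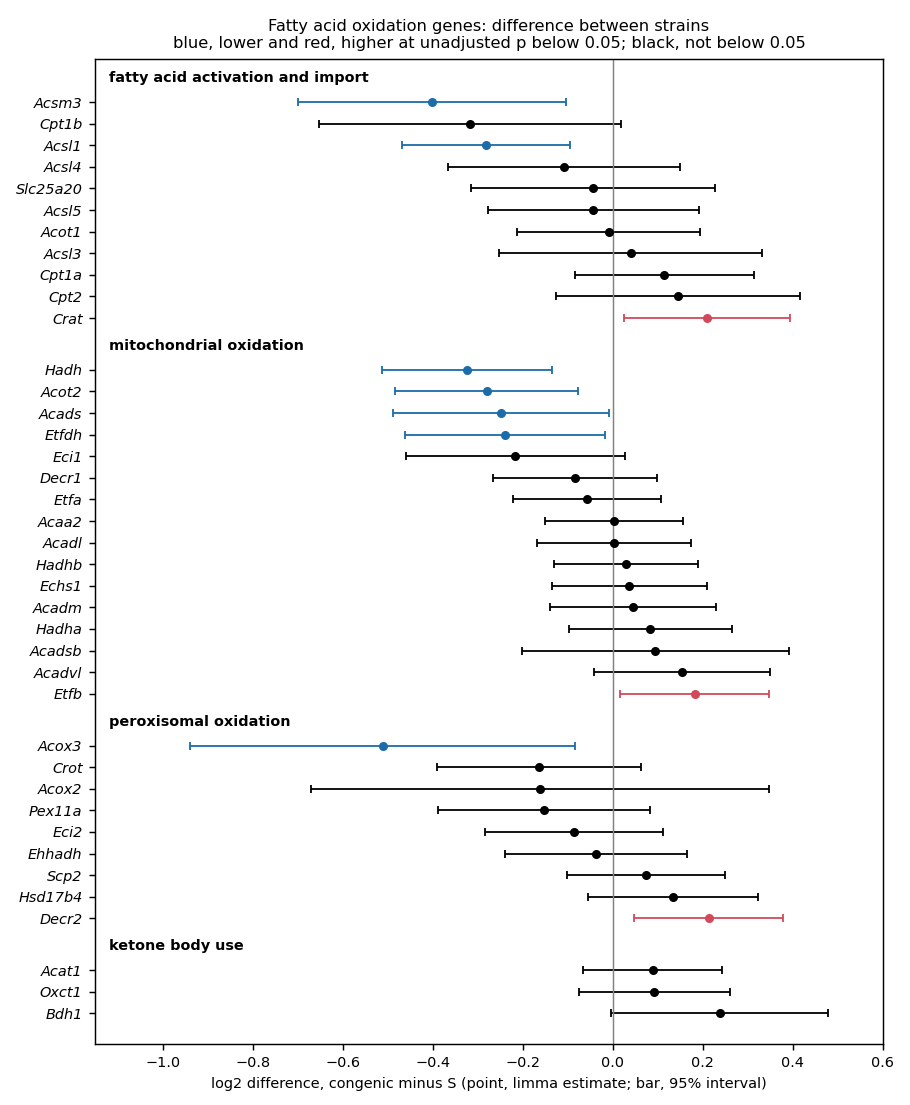
Log2 difference of each of the 39 genes, congenic minus S, by role; points are limma estimates and bars 95% intervals. The 7 genes in blue were lower and the 3 in red higher at unadjusted p below 0.05, and the differences span -0.51 (Acox3) to 0.24 (Bdh1).

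The 3 values of one strain lay wholly above or below those of the other for 10 of the 39 genes. Of these, Acsl1, Hadh, Acot2, Cpt1b and Pex11a were lower in every congenic rat and Crat, Etfb, Decr2, Acadvl and Acat1 higher, which is 12.8% of the genes in each direction, against 7.99% and 7.98% of all probe sets. All differences were modest: the standard errors of the 39 genes' differences were 0.07 to 0.24 on the log2 scale, and the lowest and highest folds were 0.702 for Acox3 and 1.18 for Bdh1.

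Promoter letters are given for the 6 genes that had both an unadjusted p below 0.05 and separate strain ranges, Hadh, Acsl1 and Acot2 (lower) and Decr2, Crat and Etfb (higher), and for the shared upstream region of Hadha and Hadhb. RefSeq promoters of assembly GRCr8 were found for 35 of the 39 genes, and the 250 bases before each start were searched on both strands for 4 motifs. The GC box was spelled GGGCGG, and the promoter element that is named for its own letters was spelled CCAAT. The core motif of nuclear receptors was spelled AGGTCA. The repeat of that core to which PPAR and RXR bind together was spelled AGGTCANAGGTCA, and any match to it also matches the core. The GC box was found in 24 of the 35 (68.6%), against 30.5% of all 33469 promoters and 52.3% of the 13243 promoters of genes on the array. The CCAAT element was found in 13 (37.1%, against 34.0% of all promoters), the nuclear receptor core in 5 (14.3%, against 14.1%) and the repeat in 0, where 0.0508% of all promoters hold it. A match is a run of letters in this window and not a site shown to be bound. In the sequences, capitals mark the first 3 motifs on either strand.
Hadh, chr2:222504447-222504696 (minus strand): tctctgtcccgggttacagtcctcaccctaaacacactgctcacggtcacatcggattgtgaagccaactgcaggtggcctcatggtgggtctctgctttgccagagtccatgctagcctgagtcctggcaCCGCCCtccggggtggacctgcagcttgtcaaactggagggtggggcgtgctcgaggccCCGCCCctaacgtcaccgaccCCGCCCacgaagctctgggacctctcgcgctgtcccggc
Acsl1, chr16:52532393-52532642 (minus strand): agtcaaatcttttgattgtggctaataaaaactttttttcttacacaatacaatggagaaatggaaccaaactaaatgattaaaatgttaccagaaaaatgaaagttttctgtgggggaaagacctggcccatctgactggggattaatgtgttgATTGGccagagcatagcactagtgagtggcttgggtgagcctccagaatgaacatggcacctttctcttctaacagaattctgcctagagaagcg
Acot2, chr6:109342590-109342839 (plus strand): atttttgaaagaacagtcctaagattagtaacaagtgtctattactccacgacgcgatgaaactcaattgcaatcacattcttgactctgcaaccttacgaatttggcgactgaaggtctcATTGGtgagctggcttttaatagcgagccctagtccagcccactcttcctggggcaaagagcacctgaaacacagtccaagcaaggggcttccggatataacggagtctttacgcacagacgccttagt
Decr2, chr10:15617437-15617686 (minus strand): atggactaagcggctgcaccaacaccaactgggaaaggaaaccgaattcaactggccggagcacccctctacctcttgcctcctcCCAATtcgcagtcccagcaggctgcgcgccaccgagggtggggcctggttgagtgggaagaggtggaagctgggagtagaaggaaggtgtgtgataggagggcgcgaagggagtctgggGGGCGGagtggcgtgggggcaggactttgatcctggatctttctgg
Crat, chr3:34087100-34087349 (minus strand): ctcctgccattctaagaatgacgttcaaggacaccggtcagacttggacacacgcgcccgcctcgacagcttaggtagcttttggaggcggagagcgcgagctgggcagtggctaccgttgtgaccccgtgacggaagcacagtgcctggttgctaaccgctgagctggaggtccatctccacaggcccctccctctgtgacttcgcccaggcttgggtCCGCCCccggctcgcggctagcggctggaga
Etfb, chr1:102988249-102988498 (plus strand): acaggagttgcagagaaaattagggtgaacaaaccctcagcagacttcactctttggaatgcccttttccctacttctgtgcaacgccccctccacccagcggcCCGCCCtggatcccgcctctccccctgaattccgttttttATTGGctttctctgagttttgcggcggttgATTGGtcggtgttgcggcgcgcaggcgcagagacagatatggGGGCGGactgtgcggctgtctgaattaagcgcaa
Hadha, chr6:31907551-31907800 (plus strand): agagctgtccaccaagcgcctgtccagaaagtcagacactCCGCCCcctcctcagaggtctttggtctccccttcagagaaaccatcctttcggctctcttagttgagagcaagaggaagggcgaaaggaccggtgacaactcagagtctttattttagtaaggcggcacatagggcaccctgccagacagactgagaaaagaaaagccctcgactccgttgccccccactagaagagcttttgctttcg
Hadh held 3 GC boxes, Crat and Hadha 1 each, Decr2 1 GC box and 1 CCAAT element, and Etfb 2 of each. Acsl1 and Acot2 held 1 CCAAT element each and no GC box. None of the 7 held the nuclear receptor core. The Hadha sequence is also part of the region upstream of Hadhb, since the pair is read in opposite directions from starts 300 bases apart.

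Among the genes of activation and import, the clearest difference was in the first step. Acsl1, the main long-chain acyl-CoA synthetase of oxidative tissues, read 3929, 4414 and 3921 in the S rats and 3596, 3419 and 3072 in the congenic rats. Every congenic value lay below every S value. The mean signal was 4088 ± 282 (SD, n = 3) in the former and 3362 ± 267 in the latter, or 0.822-fold. On the log2 scale this is -0.28 ± 0.09 (SE; limma adjusted p = 0.287), and the unadjusted p stayed below 0.05 with any 1 rat left out, but not with arrays centred on their median, where the difference was -0.21. A second probe set of Acsl1 also had no overlap, with 2544, 2584 and 2724 in S and 2138, 2505 and 1757 in congenic rats, a log2 difference of -0.31 ± 0.11 (SE).

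Acsm3 encodes a medium-chain acyl-CoA synthetase and is long known as the SA gene from comparisons of hypertensive and normotensive rat kidneys. It read 3503, 5642 and 5068 in S and 3216, 3958 and 3409 in congenic rats, so that S replicate 1 lay within the congenic range. Its log2 difference was -0.40 ± 0.14 (SE; limma adjusted p = 0.335). The unadjusted p was no longer below 0.05 without S replicate 2, where the difference was -0.26, or S replicate 3, where it was -0.34. The other synthetase genes did not differ beyond their spread: Acsl3 had a log2 difference of 0.04 (95% interval -0.25 to 0.33), Acsl4 -0.11 (-0.37 to 0.15) and Acsl5 -0.04 (-0.28 to 0.19). Acot1, the cytosolic thioesterase that reverses activation, had -0.01 (-0.21 to 0.19).

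The carnitine gate showed no difference beyond the spread between rats. Cpt1a, the liver-type outer membrane transferase that sets the rate of entry, read 3126, 3187 and 2566 in S and 3154, 3274 and 3141 in congenic rats, and its 95% interval ran from -0.08 to 0.31. A second probe set of Cpt1a had the opposite sign, with a log2 difference of -0.11 (-0.32 to 0.10). Cpt2, the inner membrane transferase, had a log2 difference of 0.14 (-0.13 to 0.42), with congenic replicate 1 the highest at 1054 against 761 to 838 in S. The translocase gene Slc25a20 had -0.04 (-0.32 to 0.23). A decrease of the size seen for Acsl1 (-0.28) lay inside the intervals of Slc25a20 and of the second Cpt1a probe set. It lay outside those of the brighter Cpt1a probe set and of Cpt2, which reached increases of 0.31 and 0.42.

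Crat and Cpt1b stood apart from the rest of the carnitine genes. Crat, the acetyltransferase that buffers acetyl-CoA with carnitine, read 2064, 1961 and 1975 in S and 2280, 2482 and 2184 in congenic rats, all higher. The log2 difference was 0.21 ± 0.09 (SE; limma adjusted p = 0.421). It was 0.16 without congenic replicate 2, and 0.20 with either S replicate 2 or S replicate 3 left out, in each case with an unadjusted p above 0.05. Cpt1b, the muscle-type isoform, read 441, 461 and 468 in S and 431, 315 and 363 in congenic rats. Its congenic values were all lower, by a log2 difference of -0.32 (95% interval -0.65 to 0.02), and the unadjusted p fell below 0.05 without congenic replicate 1, where the difference was -0.43. Over the 11 genes 7 had negative differences, and at unadjusted p below 0.05 there were 2 lower (18.2%, against 5.61% of all probe sets) and 1 higher (9.09%, against 4.72%). Their median was -0.04, and it was 0.06 without congenic replicate 3, 0.02 without S replicate 2 and 0.03 with arrays centred on their median.

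**Figure D2:**
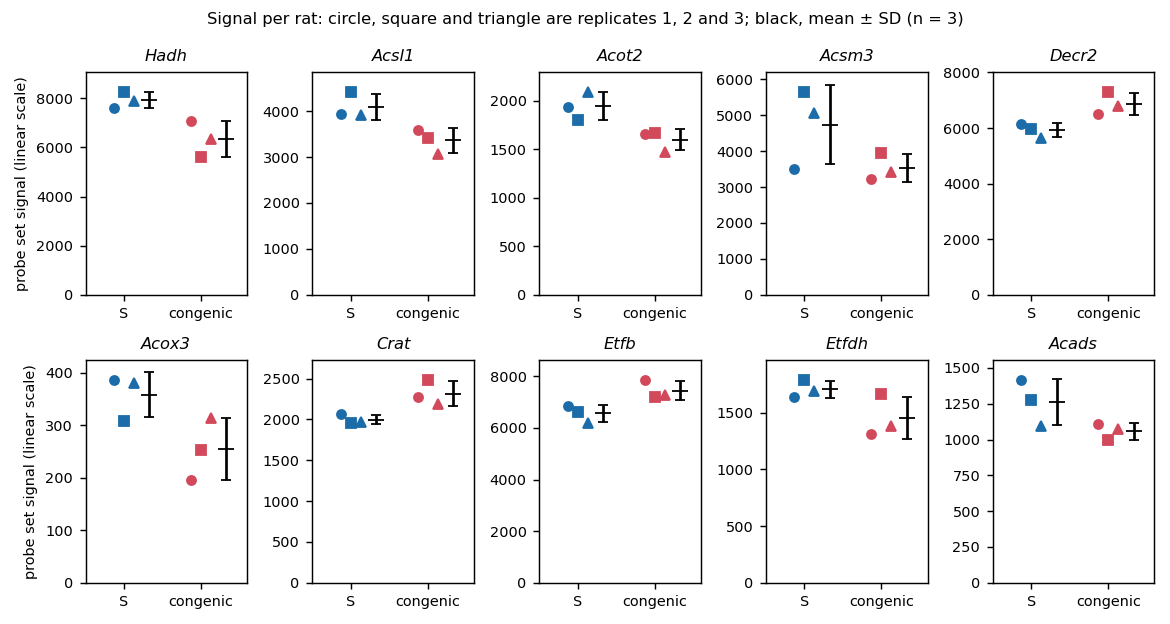
Probe set signal (linear scale from 0) of the 10 genes with unadjusted p below 0.05, 1 panel per gene in order of p; coloured symbols are the 3 rats of each strain and black bars mean ± SD. Hadh, Acsl1, Acot2, Decr2, Crat and Etfb have separate strain ranges, while the ranges of Acsm3, Acox3, Etfdh and Acads overlap.

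In mitochondrial oxidation the smallest unadjusted p of all 39 genes belonged to Hadh, the dehydrogenase that oxidises short and medium-chain hydroxyacyl-CoA in the third step of the spiral. Hadh read 7612, 8247 and 7908 in S and 7068, 5623 and 6357 in congenic rats. All 3 congenic values lay below all S values, and congenic replicate 1 was the closest to S. The means were 7922 ± 318 (SD, n = 3) and 6349 ± 723, or 0.798-fold, which is -0.32 ± 0.09 on the log2 scale (SE; limma adjusted p = 0.241). Of the 10 genes it was the only one with an unadjusted p below 0.05 in each of the 15 alternative analyses, where its log2 difference ran from -0.41 to -0.24.

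The acyl-CoA dehydrogenases, which open the spiral for chains of different length, did not go together. Acads, for short chains, read 1415, 1279 and 1096 in S and 1111, 994 and 1072 in congenic rats, with S replicate 3 inside the congenic range. Its log2 difference was -0.25 ± 0.11 (SE; limma adjusted p = 0.472). The unadjusted p was above 0.05 with any of S replicates 1 and 2 and congenic replicates 2 and 3 left out, where the difference ran from -0.26 to -0.16. Acadvl, for very long chains, read 2409, 2541 and 2075 in S and 2564, 2550 and 2675 in congenic rats, narrowly higher in every congenic rat, with a log2 difference of 0.15 (95% interval -0.04 to 0.35). Without S replicate 2 it was 0.22 with an unadjusted p below 0.05. Acadm, for medium chains, had 0.05 (95% interval -0.14 to 0.23), Acadl, for long chains, 0.0032 (-0.17 to 0.17) and Acadsb, for short branched chains, 0.09 (-0.20 to 0.39).

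The electrons of these dehydrogenases pass to the electron transfer flavoprotein, a dimer of Etfa and Etfb products, and from it to the respiratory chain through the enzyme of Etfdh. The 3 genes differed in sign. Etfb read 6866, 6625 and 6207 in S and 7854, 7196 and 7287 in congenic rats, all higher, with a log2 difference of 0.18 ± 0.08 (SE; limma adjusted p = 0.444). Etfdh read 1640, 1787 and 1692 in S and 1315, 1665 and 1378 in congenic rats, where congenic replicate 2 lay inside the S range, with a log2 difference of -0.24 ± 0.10 (SE; limma adjusted p = 0.455). Etfa had -0.06 (95% interval -0.22 to 0.11). The calls of Etfb and Etfdh depended on single rats: the unadjusted p of either was above 0.05 with any of S replicates 2 and 3 and congenic replicates 1 and 3 left out. In those fits Etfb had 0.14 to 0.20 and Etfdh -0.24 to -0.17.

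Hadha and Hadhb, the alpha and beta subunits of the trifunctional protein for long chains, had log2 differences of 0.08 (95% interval -0.10 to 0.26) and 0.03 (-0.13 to 0.19). Their 4 strain means were 4110 ± 335 and 4351 ± 244 for Hadha and 6613 ± 284 and 6749 ± 219 for Hadhb, in S and congenic kidneys. The hydratase gene Echs1 had 0.04 and the thiolase gene Acaa2 0.0028. Acaa2 was among the steadiest of the pathway, with 7610 to 7938 in S and 7693 to 7893 in congenic rats.

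Unsaturated chains need auxiliary enzymes. The isomerase gene Eci1 read 3969, 5551 and 3957 in S and 3633, 3977 and 3847 in congenic rats, with S replicate 2 far above the others. Its log2 difference was -0.22 (95% interval -0.46 to 0.03). It was -0.05 without S replicate 2, but -0.30 without S replicate 1 or S replicate 3, with an unadjusted p below 0.05 in both of the latter. The mitochondrial dienoyl-CoA reductase gene Decr1 had -0.08 (95% interval -0.27 to 0.10).

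Acot2, the mitochondrial matrix thioesterase, read 1941, 1799 and 2089 in S and 1659, 1668 and 1473 in congenic rats, all lower, with a log2 difference of -0.28 ± 0.10 (SE; limma adjusted p = 0.330). Without S replicate 3 or congenic replicate 3 it was -0.23 and -0.22, with an unadjusted p just above 0.05. Its other probe sets disagreed in size and sign. One read 574, 619 and 493 in S and 522, 259 and 271 in congenic rats, a log2 difference of -0.75 ± 0.22 (SE), and another had 0.07 ± 0.11. Acot1 and Acot2 are close paralogs, and a probe set that carried both symbols was not used. Over the 16 mitochondrial genes 9 differences were positive and 7 negative, with a median of 0.0030, and at unadjusted p below 0.05 there were 4 lower (25%, against 5.61% of all probe sets) and 1 higher (6.25%, against 4.72%).

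**Figure D3:**
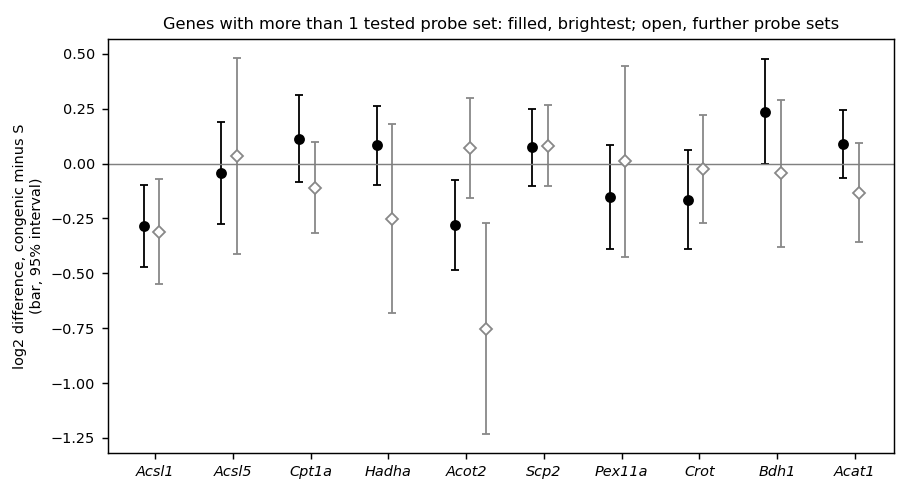
Log2 difference, congenic minus S, of the 10 genes with more than 1 tested probe set; filled circles are the brightest probe sets used throughout, open diamonds the further ones, and bars 95% intervals. Among 11 further probe sets, the sign of the brightest was shared by 4 and opposed by 7, and both tested probe sets of Acsl1 lie below 0.

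In the peroxisome, Decr2, the dienoyl-CoA reductase of that organelle, read 6141, 5973 and 5645 in S and 6502, 7290 and 6799 in congenic rats. All congenic values were above all S values. The means were 5920 ± 252 (SD, n = 3) and 6864 ± 398, with a log2 difference of 0.21 ± 0.08 (SE; limma adjusted p = 0.374). It was 0.18 without S replicate 3 and 0.17 without congenic replicate 2, where the unadjusted p was above 0.05.

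Acox3, an acyl-CoA oxidase of branched chains, had the lowest log2 difference of the 39 genes. It read 386, 309 and 380 in S and 196, 254 and 314 in congenic rats, where congenic replicate 3 lay just above S replicate 2. The log2 difference was -0.51 ± 0.20 (SE; limma adjusted p = 0.404). It was -0.34 without congenic replicate 1, -0.45 without S replicate 1 and -0.46 without S replicate 3, where the unadjusted p was above 0.05. Acox2, the oxidase of bile acid intermediates, read 158 to 288 over the 6 rats, close to the filter signal of 165, and had a log2 difference of -0.16 (95% interval -0.67 to 0.35).

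The remaining peroxisomal genes had intervals that include 0. Crot, the transferase that readies shortened chains for export as carnitine esters, had a log2 difference of -0.16 (95% interval -0.39 to 0.06), which was -0.29 with an unadjusted p below 0.05 without S replicate 1. Pex11a, which drives peroxisome division, read 883, 1008 and 883 in S and 829, 872 and 792 in congenic rats, narrowly lower in each, with -0.15 (-0.39 to 0.08). A second, dimmer probe set of Pex11a had overlapping values and 0.01 (-0.42 to 0.44). The bifunctional enzyme genes Ehhadh and Hsd17b4 had -0.04 (-0.24 to 0.17) and 0.13 (-0.06 to 0.32), and Hsd17b4 had 0.21 with an unadjusted p below 0.05 without S replicate 3. The isomerase gene Eci2 had -0.09 (-0.28 to 0.11), and the thiolase and sterol carrier gene Scp2 had 0.07 (-0.10 to 0.25). Over the 9 genes 6 differences were negative, with a median of -0.09, and at unadjusted p below 0.05 there was 1 in each direction (11.1%, against 5.61% lower and 4.72% higher of all probe sets).

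The 3 genes of ketone body use all had positive differences, where 48.2% of all tested probe sets did. None had an unadjusted p below 0.05, where 10.3% of all tested probe sets did. Bdh1, the hydroxybutyrate dehydrogenase, read 889, 776 and 809 in S and 976, 1056 and 887 in congenic rats, with the lowest congenic rat just under the highest S rat. Its log2 difference was 0.24 ± 0.11 (SE; limma adjusted p = 0.489), with an unadjusted p just above 0.05. It was 0.29 without S replicate 1 and 0.30 without congenic replicate 3, where that p was below 0.05. Oxct1, the transferase that activates acetoacetate, read 13769, 13952 and 14985 in S and 14267, 16185 and 15103 in congenic rats, a difference of 0.09 (95% interval -0.08 to 0.26). Acat1, the thiolase that completes ketone use and also serves the last step of oxidation, read 7660, 7408 and 7729 in S and 8123, 7895 and 8225 in congenic rats, all higher, by 0.09 (-0.07 to 0.24). The second tested probe sets of Bdh1 and Acat1 had -0.04 and -0.13, and that of Acat1 was lower in every congenic rat. With the mean over probe sets the 2 genes had 0.10 and -0.02.

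Averaged over genes, the rats of the strains were intermixed for 3 of the 4 roles. For activation and import, the mean log2 deviation from each gene's 6-array mean was -0.06, 0.11 and 0.05 in S and 0.03, 0.01 and -0.14 in congenic rats. For mitochondrial oxidation it was -0.02, 0.09 and 0.0046 in S and -0.01, -0.02 and -0.05 in congenic rats, and for peroxisomal oxidation -0.03, 0.06 and 0.08 and -0.07, -0.03 and -0.02. Thus S replicate 2 was the highest rat for the first 2 roles and congenic replicate 3 the lowest. For ketone use the strains were apart, with -0.04, -0.12 and -0.05 in S and 0.05, 0.13 and 0.03 in congenic rats.

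**Figure D4:**
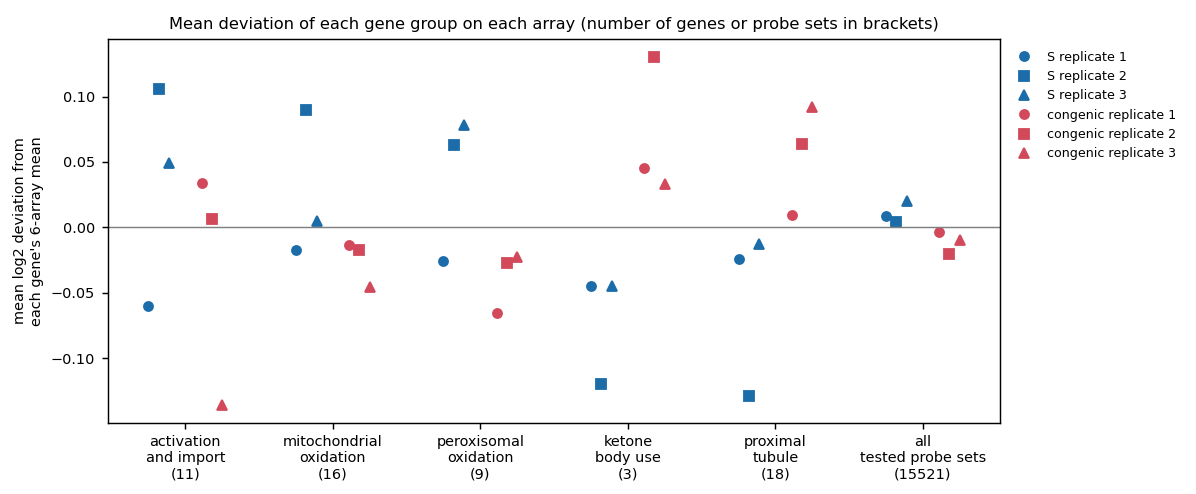
Mean log2 deviation of the genes of each role on each array, beside proximal tubule markers and all tested probe sets; each symbol is 1 rat and the bracketed number the genes or probe sets averaged. The strains overlap for activation and import and for mitochondrial and peroxisomal oxidation, and are apart for ketone body use and the proximal tubule markers.

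Markers of the proximal tubule mostly had positive differences. The 39 pathway genes had 19 positive (48.7%) and 20 negative differences, with 3 higher and 7 lower past the unadjusted mark. Of the 18 proximal tubule markers 14 had positive differences (77.8%, against 48.2% of all tested probe sets), with a median of 0.12. An unadjusted p below 0.05 in limma was found for 3, Slc13a1, Fbp1 and Anpep. These 3 were higher in congenic kidneys (16.7%, against 4.72% of all tested probe sets). The mean log2 deviation of the 18 markers was -0.02, -0.13 and -0.01 in S and 0.01, 0.06 and 0.09 in congenic rats. Their summed signal ran from 267112 to 304691 in S and from 297911 to 339225 in congenic rats, which overlap. All 18 had signals above the filter. S replicate 2, the lowest rat for these markers, was the highest for activation and for mitochondrial oxidation, and the lowest for ketone body use. Some markers of other cells also differed between the strains at unadjusted p below 0.05. Both tested erythrocyte markers were lower (100%, against 5.61% of all tested probe sets), Hbb with -0.42 ± 0.16 (SE) and Alas2 with -0.55 ± 0.21 on the log2 scale. Their summed signal overlapped, from 15467 to 22013 in S and from 9923 to 16814 in congenic rats. The 6 tested immune markers had 5 positive differences and 1 negative. Past the unadjusted mark were 2, both higher in every congenic rat (33.3%, against 4.72% of all probe sets higher). These were Cd68 with 0.63 ± 0.23 and C1qb with 0.36 ± 0.16. Cd68 read 151 to 307 over the 6 rats, close to the filter signal of 165. Cd74, C1qa and Lyz2 had 0.08, 0.09 and 0.15. The negative one, Ptprc, had -0.35 ± 0.22 with overlapping values and an unadjusted p above 0.05. The summed signal of the measured list overlapped, with 16396 to 17848 in S and 17630 to 19914 in congenic rats. The following lists were divided too. Of 6 tested endothelial genes, 3 positive and 3 negative, Vwf had 0.63 ± 0.21 (16.7% higher, against 4.72%). Of 9 collecting duct genes, 5 positive and 4 negative, Hsd11b2 had 0.25 ± 0.08 (11.1% higher). Of 7 smooth muscle and stroma genes, 2 positive and 5 negative, Acta2 had -0.36 ± 0.13 (14.3% lower, against 5.61%). Of 7 loop of Henle and distal tubule genes, 2 positive and 5 negative, Umod and Slc12a1 had 0.25 ± 0.11 and -0.26 ± 0.10 (14.3% in each direction). The part of all these markers in the differences of the pathway genes was not tested.

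Genes related to the pathway, not all of them of fatty acid oxidation, came from 5 lists with 115 entries, of which 93 were tested. An unadjusted p below 0.05 was found for 14 of them, 9 higher in congenic kidneys (9.68%, against 4.72% of all tested probe sets) and 5 lower (5.38%, against 5.61%), and their median log2 difference was 0.06. Among 19 regulators 2 were higher (10.5%, against 4.72%) and 3 lower (15.8%, against 5.61%). Ppard, the PPAR receptor of broad expression, read 856, 606 and 589 in S and 420, 468 and 387 in congenic rats, all lower, with a log2 difference of -0.67 (limma adjusted p = 0.194). Hnf4a, a nuclear receptor of the proximal tubule, was higher in every congenic rat, with 0.23 ± 0.07 (SE), as was Txnip, an inhibitor of thioredoxin, with 0.21 ± 0.08. The mitochondrial deacetylase gene Sirt3 had -0.29 ± 0.13 and the corepressor gene Nrip1 -0.25 ± 0.12, both lower in every congenic rat. Nrip1 was named after its values were seen, as the fifth of the 5. Ppara, the PPAR receptor best known for driving this pathway, read 20.3 to 157 over the 6 rats, under the filter, and Ppargc1a, the coactivator gene, had -0.04 (95% interval -0.25 to 0.17).

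Of 26 tested genes listed as other mitochondrial acyl-CoA enzymes 5 were higher (19.2%, against 4.72% of all probe sets) and 0 lower, where 5.61% of all probe sets were lower. The list also holds genes of amino acid breakdown. Mccc2 and Mccc1, the subunits of methylcrotonyl-CoA carboxylase in leucine breakdown, had log2 differences of 0.38 ± 0.11 (SE; limma adjusted p = 0.261) and 0.20 ± 0.09. Ivd and Auh, the enzymes before and after that carboxylase, had 0.15 (95% interval -0.07 to 0.37) and 0.14 (-0.04 to 0.32). Pccb, a subunit of propionyl-CoA carboxylase, had 0.24 ± 0.07 (limma adjusted p = 0.283), while the gene of its other subunit, Pcca, had 0.14 (-0.09 to 0.38) and Mmut, which acts later on the same route, -0.13 (-0.32 to 0.06). Hsd17b10, the hydroxyacyl-CoA dehydrogenase of isoleucine breakdown, had 0.19 ± 0.08. The congenic values of Mccc2, Mccc1, Pccb and Hsd17b10 were all above the S values. The fifth gene, Acad10, named after its values were seen, had 0.31 ± 0.14 with overlapping values. Over the 26 genes 17 differences were positive (65.4%, against 48.2% of all tested probe sets) and 9 negative. Hibch (-0.07), Hibadh (-0.04) and Mcee (-0.06) were among the negative ones. Ivd, Auh, Pcca, Mmut, Hibch, Hibadh and Mcee had no unadjusted p below 0.05 and fall outside the rule by which genes were named.

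Of 32 further peroxisomal genes 2 were higher (6.25%, against 4.72%) and 1 lower (3.12%, against 5.61%). Pxmp2, a channel of the peroxisomal membrane, had a log2 difference of 0.30 ± 0.10 (SE; limma adjusted p = 0.294) and the thioesterase gene Acot8 0.33 ± 0.13. Nudt7, a coenzyme A hydrolase of peroxisomes, read 1242, 1276 and 1240 in S and 1017, 994 and 1004 in congenic rats, a difference of -0.32 ± 0.10 (SE; limma adjusted p = 0.277). The strains were far apart beside the spread within each for this gene. Of 4 tested genes of ketone synthesis and transport 1 was lower (25%, against 5.61%) and 0 higher (0%, against 4.72%). The lower one, Slc16a1, a carrier of ketone bodies and lactate, had -0.39 ± 0.14 (SE; limma adjusted p = 0.337) with overlapping values. Of 12 tested genes of uptake and binding, 0 had an unadjusted p below 0.05 (0%, against 10.3% of all tested probe sets). Among them was the fatty acid transporter gene Cd36 (-0.11, 95% interval -0.40 to 0.17).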

How the data were processed

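Kidney RNA of 3 S and 3 congenic rats was hybridised to 6 Affymetrix 1-colour arrays. The deposited file holds linear probe set intensities. They came from GCOS 1.4, per the submitters' processing notes, and its settings and detection calls are not given in those notes. Each array's mean after trimming 2% at either end was 500.2, so the authors had scaled the arrays before deposit, and no normalisation was added. Such scaling leaves signal-dependent differences in place.

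Of 31099 probe sets, 57 controls were left out. Signals below the 10th percentile (12.3) were set to that value before log2 transformation. The 15521 probe sets with mean log2 signal above the median (a signal of 165) were tested with limma 3.58.1 in R 4.3.3 (lmFit, eBayes with intensity trend), for congenic minus S. Benjamini-Hochberg adjustment ran over all of them. The number of arrays limits the precision, and the median standard error was 0.14. Exact permutation tests of 3 against 3 cannot go below p = 0.1 and were not used. The p-values set each difference against the spread between single rats, moderated toward that of other probe sets of like signal (prior degrees of freedom 10.7).

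Symbols came from the array annotation, updated through Entrez identifiers to GRCr8. A single symbol named 20826 probe sets, while 436 carried several and 9780 had none. The pathway genes, lists, roles and tests were chosen with earlier results of these data known, so counts are descriptions. Named in full are genes of the pathway with unadjusted p below 0.05 or with strain values that do not overlap. The 3 of smallest p per role and the carnitine gate are named too. From each list of other genes, up to 4 of smallest p were named, of those with unadjusted p below 0.05. A few further genes of these lists were named outside this rule. Markers of podocytes (0 of 5 tested genes with unadjusted p below 0.05), endothelium (1 of 6), smooth muscle and stroma (1 of 7), loop of Henle and distal tubule (2 of 7), collecting duct (1 of 9), immune cells (2 of 6), adipocytes (0 of 2), adrenal cortex (0 of 1) and erythrocytes (2 of 2) were also read. For comparison, 10.3% of all tested probe sets had an unadjusted p below 0.05. Alternatives covered the floor (a pseudocount of 16), filter, normalisation, variance model, array weights, title number, probe set choice and each rat left out. Figures used matplotlib 3.10.9.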

Additional observations from a re-analysis of the deposited data

How the results depend on the processing

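All 10 genes with unadjusted p below 0.05 kept their sign in the 15 alternatives, and 1, Hadh, kept p below 0.05 in each. Of the other 29 genes, 23 had p below 0.05 in no alternative, and 17 changed sign in at least 1. The count of probe sets past adjusted p 0.05, 0 as reported, was 9 with arrays centred on their median and 0 to 41 with 1 rat left out (41 for S replicate 1, 6 and 3 for congenic replicates 1 and 3). The count of pathway genes at unadjusted p below 0.05, 10 as reported, was 5 without the variance trend, 6 with a block for a title number below 10, and 5 to 11 with 1 rat left out. The higher genes, 3 as reported, were 5 with centring, 0 without the trend, 1 with the title block and 1 to 4 with 1 rat left out. Of all probe sets, 4.72% were higher as reported, 9.48% with centring, 3.52% without the trend and 4.11% with the title block. With 1 rat left out that share was 3.61% to 5.66%. The lower genes, 7 as reported, were 4 without the filter on low signals, 3 with centring and 4 to 7 with 1 rat left out. Of all probe sets, 5.61% were lower as reported, 4.27% without the filter, 2.49% with centring and 3.76% to 6.78% with 1 rat left out. The median of the 39 genes was 0.061 with centring, which moved the median of all tested probe sets from -0.01 to 0.062, and it was -0.05 after quantile normalisation or cyclic loess. The cause of these changes was not tested. No paired analysis was possible because the labels give no replicate numbers that the strains share. Without detection calls, signals near the filter, such as those of Acox2, could not be separated from background.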
